A study of Mus musculus with 12 samples.

Results

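Broad domains of trimethylated lysine 27 of histone H3 (H3K27me3) on the autosomes of mouse intestinal organoids were described. A domain was any H3K27me3 peak called with SEACR on chromosomes 1 to 19 that was 10000 bp or wider in the deposited mm10 peak table. This rule gave 769 domains of 80900 autosomal peaks, or 0.951%, and of 105301 peaks on all chromosomes. The domains overlapped 664 of the 20661 autosomal protein-coding genes, or 3.21%. CUT&RUN, which cuts and sequences the DNA around an antibody-bound mark, had been run on organoids grown in Matrigel from isolated mouse crypts. The organoids had been kept for 6 days with vehicle or with 25 µM AA, which the series title gives as arachidonic acid. H3K27me3, trimethylated lysine 4 (H3K4me3) and acetylated lysine 27 (H3K27ac) were each read in 2 vehicle libraries and 2 AA libraries. The design text speaks of organoids without a prostaglandin receptor gene and of a prostaglandin arm for H3K27ac, whereas the labels of these 12 libraries name no genotype, strain, age or sex. Nothing in the labels ties the 2 libraries of a group to different cultures or mice. The p-values therefore speak only of the scatter among these libraries, and that scatter may be technical.

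H3K27me3 is written by Polycomb repressive complex 2 and read by Polycomb repressive complex 1, and it marks genes that are kept silent. In most cell types it spreads over long stretches at genes of developmental transcription factors that belong to other lineages. H3K4me3 marks the starts of genes that are active or poised, and a start that carries both methyl marks is called bivalent. H3K27ac marks active starts and enhancers and cannot sit on the same lysine as H3K27me3.

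The sequences just before 4 gene starts inside domains are shown, because changes of both methyl marks are described at Sox21, Nr5a2 and Itpkb, and Hoxa5 lies in the most strongly marked Hox domain. Each is the 250 bases before a RefSeq start (GRCm38.p6), 5′ to 3′ on the strand of the gene, with the dinucleotide CG in capitals. CG reads the same on both strands.
Hoxa5, chr6:52204588-52204837, minus strand: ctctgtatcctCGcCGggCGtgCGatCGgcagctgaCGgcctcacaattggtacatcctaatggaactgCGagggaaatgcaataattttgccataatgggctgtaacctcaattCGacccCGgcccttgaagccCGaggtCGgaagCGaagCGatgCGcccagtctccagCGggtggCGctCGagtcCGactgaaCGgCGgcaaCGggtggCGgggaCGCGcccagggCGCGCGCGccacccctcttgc
Sox21, chr14:118237031-118237280, minus strand: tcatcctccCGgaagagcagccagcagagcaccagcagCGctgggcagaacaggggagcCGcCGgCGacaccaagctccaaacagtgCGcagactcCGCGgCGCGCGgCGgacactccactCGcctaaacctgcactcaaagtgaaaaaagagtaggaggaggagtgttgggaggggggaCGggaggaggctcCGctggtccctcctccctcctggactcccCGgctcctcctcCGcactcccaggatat
Nr5a2, chr1:136953631-136953880, minus strand: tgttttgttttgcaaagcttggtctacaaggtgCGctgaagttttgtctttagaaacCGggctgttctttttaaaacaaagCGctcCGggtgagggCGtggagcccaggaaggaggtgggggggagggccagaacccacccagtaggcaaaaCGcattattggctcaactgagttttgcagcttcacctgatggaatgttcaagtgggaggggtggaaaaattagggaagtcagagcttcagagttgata
Itpkb, chr1:180330226-180330475, plus strand: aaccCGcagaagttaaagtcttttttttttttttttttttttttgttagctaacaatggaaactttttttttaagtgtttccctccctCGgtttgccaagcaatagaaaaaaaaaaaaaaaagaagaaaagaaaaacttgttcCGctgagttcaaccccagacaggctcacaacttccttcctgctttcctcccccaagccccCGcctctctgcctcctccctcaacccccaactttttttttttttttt
These windows held 28 CG at Hoxa5, 17 at Sox21, 6 at Nr5a2 and 4 at Itpkb. Of all autosomal starts in the table, 89.8% held fewer CG than Hoxa5, 67.5% fewer than Sox21, 36.8% fewer than Nr5a2 and 28.1% fewer than Itpkb. The table gave 20084 starts of 16456 of the autosomal protein-coding genes. The 451 starts inside domains had a median of 14 CG, against 10 over all starts, and a median G and C content of 61.2%, against 56%. Starts under other H3K27me3 peaks lay between, at 12 CG and 58.8%. CG-rich starts were thus more common in domains, but the starts of Nr5a2 and Itpkb had fewer CG than the median start.

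The domains covered 13.1 Mb, or 8.97% of all autosomal bases under an H3K27me3 peak. Their median width was 13970 bp and the widest spanned 144400 bp, while other autosomal peaks had a median width of 1295 bp. There were 160 domains of 20000 bp or more. The 3 domains just inside the limit were at Mecom (10006 bp), C1qc with C1qa (10008 bp) and Syt2 (10010 bp). Just outside it were peaks at Grik4 (9985 bp), Rapgef3 (9988 bp) and a site with no protein-coding gene (9995 bp). Scores just inside ran from 0.143 to 0.433 over the libraries and just outside from 0.163 to 0.313, so the limit split a continuous range. Every autosome held domains, from 8 on chromosome 16 to 81 on chromosome 2. Some domains were neighbours: 93 gaps were under 10000 bp, and joining across them left 676 stretches.

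The deposited score of a peak is its mean coverage per base, scaled by the authors with 1 factor per library. Vehicle libraries had median domain scores of 0.256 and 0.249, and AA libraries of 0.290 and 0.290. Other autosomal peaks had medians of 0.0971, 0.0968, 0.106 and 0.114 in the same order. In unscaled terms the median domain was covered 3.07 to 4.41 times per base and other peaks 1.13 to 1.67 times. Wide peaks were therefore also high peaks, in all 4 libraries. Within each library the median log2 score of domains exceeded that of other peaks by 1.15, 1.12, 1.21 and 1.13, a mean difference in this excess of 0.04 between AA and vehicle, given as a description since an exact permutation test of 2 against 2 libraries cannot go below p = 0.333.

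**Figure D1:**
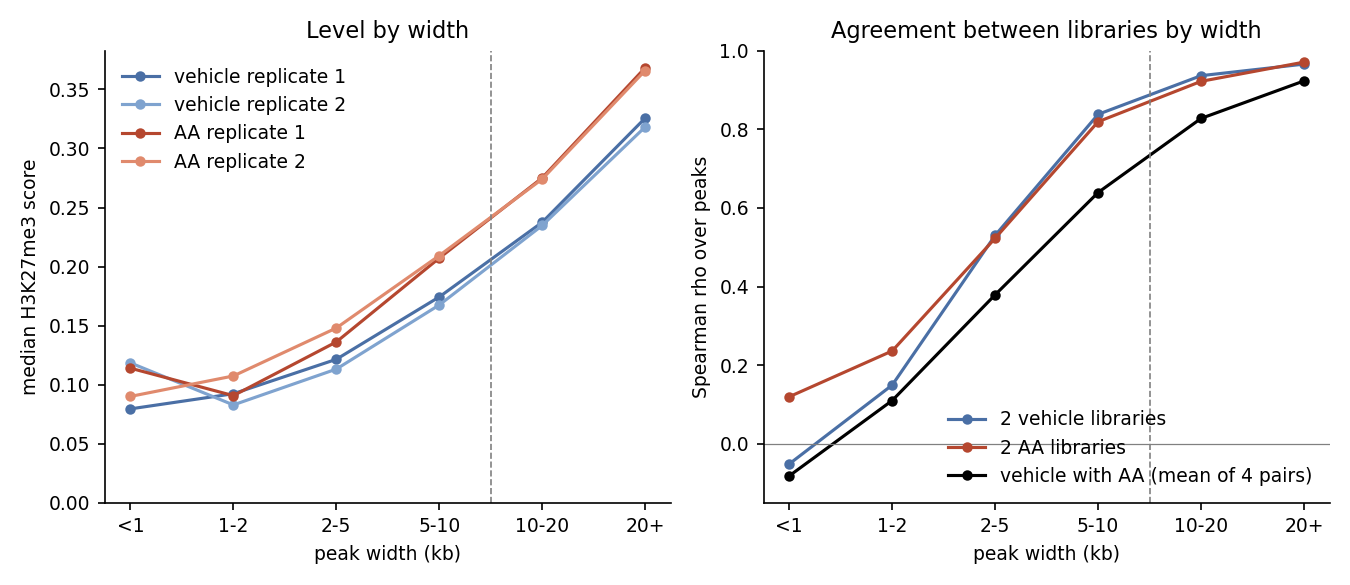
H3K27me3 peaks by width in kb, with the 10 kb limit dashed. Left, the median score in each of the 4 libraries rises from 2 kb on. Right, Spearman's rho of scores between libraries over the peaks of each bin, which is near 0 for the narrowest peaks and 0.923 to 0.971 for peaks of 20 kb or more.

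The order of the domains by score was nearly the same in replicate libraries, which was not so for narrow peaks. Over the 769 domains Spearman's rho was 0.953 between the vehicle libraries, 0.939 between the AA libraries and 0.863 to 0.873 between a vehicle and an AA library. Over the 80131 other autosomal peaks the values were 0.167, 0.275 and 0.0882 to 0.201. These correlations run over peaks of the same libraries, wider peaks hold more reads, and rho is given as a description. The plot of level and agreement by width shows both climbing from 2000 bp on, with no step at 10 kb. From the narrowest bin to the next, the median level fell in vehicle replicate 2 and AA replicate 1.

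Several domains stood apart by level. The highest was near the first assembled bases of chromosome 9 (chr9:2999990-3038608, no protein-coding gene), with scores of 125, 131, 125 and 112 in the vehicle and AA libraries. The same interval scored 121 to 139 in H3K4me3, so its signal was not particular to H3K27me3. A domain over Sfi1 (chr11:3123250-3200145), a gene of a centrosome protein, followed at 1.45, 1.51, 1.37 and 1.42, with 99.4% of its bases under H3K4me3 peaks and 100% under an H3K27ac peak. With the chromosome 9 domain, the length-weighted mean score was 0.663 and 0.673 in vehicle and 0.698 and 0.661 in AA libraries; without it, 0.294 and 0.288 against 0.331 and 0.331. The medians without it were 0.256, 0.249, 0.289 and 0.289. A group of 27 domains lay in the first 22 Mb of chromosome 8, and 19 of these held an H3K27ac peak.

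The labelled tissue was checked at gene starts. Of 21 intestinal epithelial marker genes with a start in the table, all 21 had an H3K4me3 peak at a start and 17 an H3K27ac peak, among them Epcam, Cdx2, Vil1, Hnf4a and Fabp1. No start of 10 fibroblast and smooth muscle genes, 6 endothelial genes or 7 nerve and glia genes had an H3K27ac peak, and 1 of 12 blood genes had one (Runx1). H3K4me3 was at 5 of 10, 2 of 6, 3 of 7 and 5 of 12 of these. Over all genes with a start, 64.6% had H3K4me3 and 49% H3K27ac.

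Developmental transcription factor genes lay in domains far more often than genes at large. Of 39 Hox genes, the clustered factors that set position along the body, 38 overlapped a domain, all but Hoxa4. Of 113 other homeobox genes 78 did, as did 7 of 9 Pax, 6 of 9 Gata and Zic, 9 of 18 Sox, 7 of 15 T-box, 16 of 41 Fox and 11 of 33 basic helix-loop-helix lineage genes. Together these 8 families gave 172 of the 664 genes overlapped, in 152 of the 769 domains, and the share over all autosomal protein-coding genes was 3.21%. Among signalling ligands, 7 of 19 Wnt, 4 of 20 fibroblast growth factor and 4 of 30 bone morphogenetic protein or antagonist genes lay in a domain, including Wnt1, Fgf8, Bmp4 and Nog.

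**Figure D2:**
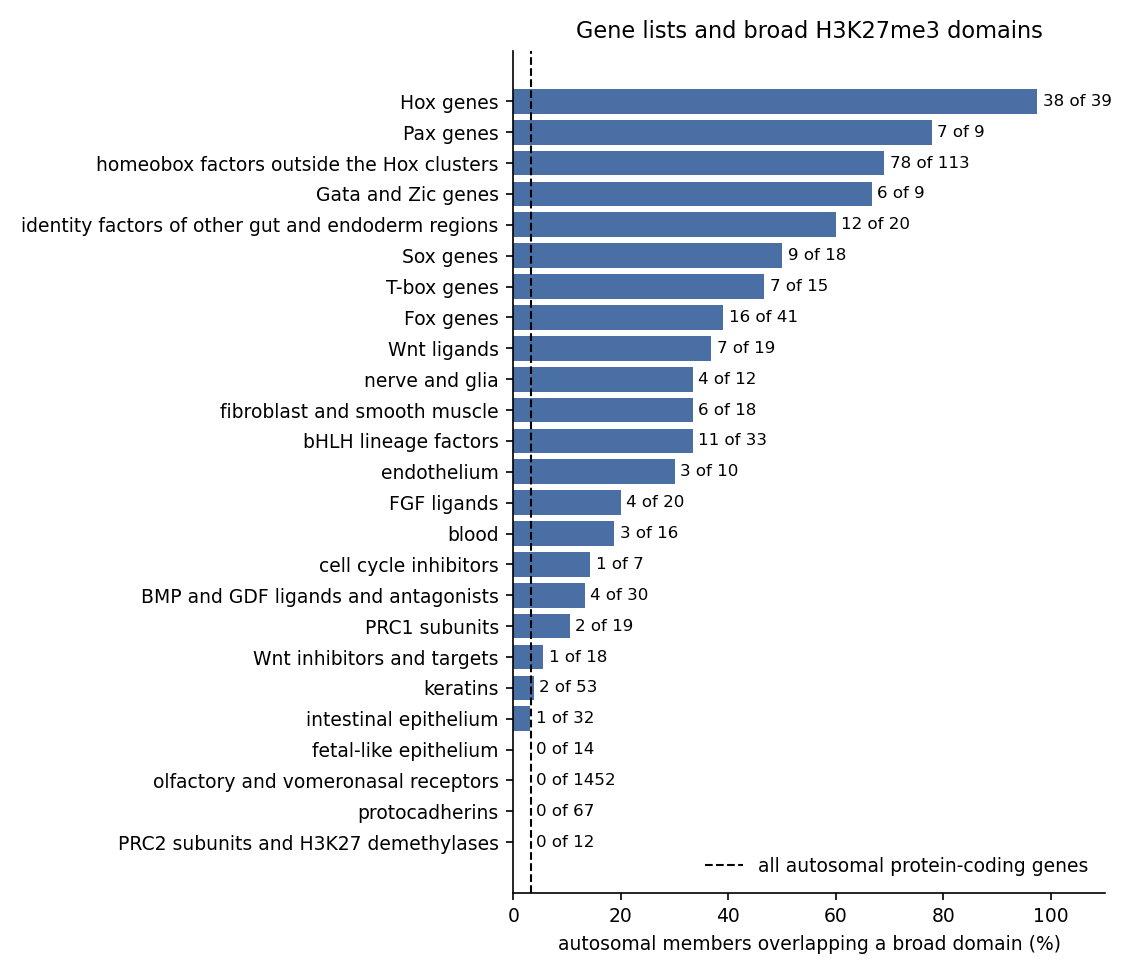
Share of the autosomal members of each gene list that overlap a broad domain, with counts beside the bars and the share over all autosomal protein-coding genes dashed. Transcription factor families stand at the top and intestinal epithelium, fetal-like epithelium and receptor families at the bottom.

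Genes that give other gut regions their identity were often covered, and genes of the intestinal epithelium no more than genes at large. Of 20 identity factors of other gut and endoderm regions 12 lay in a domain, among them Sox2 and Sox21 of the foregut, Barx1 of the stomach, Nkx2-1 of lung and thyroid, and Hhex of liver. Of 32 intestinal epithelial genes 1 did (3.13%, against 3.21% of all genes), Muc2, the gene of the goblet cell mucin. The Muc2 domain (chr7:141684946-141695410) was near the low end, at 0.182 and 0.198 in vehicle and 0.178 and 0.183 in AA libraries. Fibroblast and smooth muscle genes were covered at 6 of 18 (Pdgfra, Vim, Prrx1, Foxf1, Foxf2, Foxl1), nerve and glia at 4 of 12, endothelium at 3 of 10 and blood at 3 of 16.

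The other lists are set against the same 3.21%. None of 12 genes of Polycomb repressive complex 2 and the H3K27 demethylases, 14 fetal-like epithelial genes, 67 protocadherins or 1452 olfactory and vomeronasal receptors overlapped a domain. Of 19 genes of Polycomb repressive complex 1 there were 2 (10.5%), Cbx8 and Bmi1. Of 53 keratins there were Krt1 and Krt77 (3.77%), of 18 Wnt inhibitors and targets there was Lef1 (5.56%), and of 7 cell cycle inhibitors there was Cdkn2a (14.3%), shares that rest on 1 or 2 genes each. Cdkn2a, the tumour suppressor locus that Polycomb keeps silent in dividing cells, was under a pair of adjoining domains. The first (chr4:89265296-89283342) scored 0.398 and 0.408 in vehicle and 0.400 and 0.442 in AA libraries.

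The HoxC and HoxB clusters gave the 2 widest domains, with Sfi1 the third at 76896 bp. The HoxC cluster lay in 1 domain of 144400 bp (chr15:102903674-103048073) that held the 9 genes from Hoxc13 to Hoxc4, at 0.461 and 0.444 in vehicle and 0.518 and 0.516 in AA libraries. A HoxA domain held the genes from Hoxa3 to Hoxa13 (68451 bp, chr6:52191910-52260360). It was the highest Hox domain, at 0.545 and 0.484 in vehicle and 0.616 and 0.596 in AA libraries. HoxD was split into Hoxd8 to Hoxd13 with Evx2 (49475 bp) and Hoxd1 to Hoxd4 (59300 bp), and HoxB into 5 domains of up to 88436 bp. Hoxb1, at the 3′ end of its cluster, had the lowest of them, with 0.161 and 0.186 in vehicle and 0.127 and 0.169 in AA libraries. At the other end of HoxB, the domain of Hoxb13 with Ttll6 had 0.497 and 0.458 in vehicle and 0.513 and 0.513 in AA libraries, so levels varied along the cluster. H3K4me3 peaks lay in 9 of the 10 Hox domains, all but that of Hoxb1, with 16 in that of Hoxa3 to Hoxa13, and H3K27ac peaks in 2.

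Some domains held microRNA genes. Of the 919 autosomal hairpins that RefSeq lists, 23 fell in a domain, or 2.50%, a share below that of protein-coding genes. They included all 3 copies of miR-9, an abundant microRNA of neurons, both members of the miR-10 family and all 3 of the miR-196 family, which are encoded inside Hox clusters. The mature sequences below are shown for these 3 families, grouped by seed, which is bases 2 to 8 and in capitals.
miR-9-5p: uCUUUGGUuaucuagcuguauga
miR-10a-5p: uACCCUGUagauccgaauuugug
miR-10b-5p: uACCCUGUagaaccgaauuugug
miR-196a-5p: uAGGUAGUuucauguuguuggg
miR-196b-5p: uAGGUAGUuuccuguuguuggg
Mir10a (chr11) and Mir10b (chr2) share 1 seed, as do Mir196a-1 (chr11), Mir196a-2 (chr15) and Mir196b (chr6). Of these 8 hairpins, Mir196b alone lay in a domain past the test for AA, that of Hoxa3 to Hoxa13. The 3 Mir9 domains held no protein-coding gene and scored 0.292 to 0.402 in vehicle and 0.345 to 0.414 in AA libraries.

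Most domains also held H3K4me3, and few held H3K27ac. At least 1 H3K4me3 peak lay in 630 domains (81.9%), 1446 peaks in all, which covered a median of 22.7% of the bases of those domains. H3K27ac peaks lay in 137 domains (17.8%), 187 peaks in all. Both marks were in 129 domains, H3K4me3 alone in 501, H3K27ac alone in 8 and neither in 131. Domains with H3K4me3 alone had median H3K27me3 scores of 0.272 and 0.263 in vehicle libraries, against 0.210 and 0.202 in domains with neither mark. Domains with both marks lay between, at 0.25 and 0.243. The libraries read many cells, so both marks in 1 domain need not be on the same chromosome copy.

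Gene starts in domains had an H3K4me3 peak about as often as other starts, and rarely had H3K27ac. The 451 starts in a domain belonged to 384 genes in 346 domains. Of these starts 300 had an H3K4me3 peak (66.5%), close to 66.6% under other H3K27me3 peaks and 63.4% of all starts. Only 33 had an H3K27ac peak (7.32%), against 33.9% of starts under other H3K27me3 peaks and 47.8% of all starts. The H3K4me3 peaks at starts in domains were low, with median scores of 0.258 and 0.267 in vehicle and 0.222 and 0.161 in AA libraries. Peaks at starts with no H3K27me3 peak scored 0.711 and 0.691 in vehicle and 0.884 and 0.751 in AA libraries. Those at starts under other H3K27me3 peaks lay between, at 0.457 and 0.456 in vehicle and 0.494 and 0.377 in AA libraries. H3K4me3 was thus present at about the usual share of starts but at lower scores in every library, values given as a description with no test.

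What a domain held went with its marks. The 152 domains with a gene of the 8 transcription factor families had a median width of 18400 bp and median scores of 0.348 and 0.338 in vehicle and 0.389 and 0.381 in AA libraries. The 440 other domains with a protein-coding gene had a median width of 13136 bp and scores of 0.239, 0.237, 0.278 and 0.275. The 177 domains with no protein-coding gene had medians of 0.224, 0.218, 0.254 and 0.265. H3K27ac went the other way: it was in 14 transcription factor domains (9.21%), 79 of the other gene domains (18%) and 44 of those with no gene (24.9%). The order held in every library for H3K27me3 but was not tested, since domains of 1 library are not replicates. Of the 177 domains with no protein-coding gene, 95 overlapped another RefSeq gene, in 62 a long noncoding RNA.

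Under AA the domains carried slightly more H3K27me3 as scaled by the authors. The median log2 change, AA minus vehicle on the log2(score + 0.0329) scale, was 0.18, against 0.15 over other autosomal peaks and 0.12 over all peaks tested, and the median ratio of means was 1.15. After quantile normalization the median turned to -0.018. The change was above 0 in 661 domains (86.0%), against 59% of all peaks tested. In 515 domains (67.0%) both AA libraries exceeded both vehicle libraries, against 26.3% of all peaks, and in 42 (5.46%) both lay below, against 13.4%. Autosomal peaks from 5000 to 10000 bp were close to the domains. Both AA libraries lay above in 58.1% of them and below in 7.49%. Their change was above 0 in 82.5%, with a median of 0.22. By limma with an adjusted p under 0.05 over all 105301 peaks, 46 domains rose and none fell, where 0.498% of all peaks rose and 0.0475% fell. At an unadjusted p under 0.05 there were 288 of the 769 domains, 13 of them lower, a count not set against all peaks. So 5.98% of the domains were called, against 0.545% of all peaks. By width, 0.763% of peaks under 1000 bp, 0.139% from 1000 to 2000 bp, 1.02% from 2000 to 5000 bp and 4.88% from 5000 to 10000 bp were called. Agreement between libraries climbed with width, and its part in these shares was not tested.

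The calls rested on the scaling, on the variance model and on having 4 libraries. By limma without trend and robust no domain was called, and after quantile normalization 2 were. When each library was centred on its median over all peaks, which takes 0.11 from every change, the median of the domains became 0.07, 524 domains stayed above 0 and 1 was called, H2-T3, which rose, where 0.075% of all peaks were called (0.0446% higher and 0.0304% lower). With the spread modelled on total peak signal, an alternative chosen after seeing the data, 143 domains rose and 7 fell (0.771% and 0.0608% of all peaks). With centring as well, 35 rose and 11 fell (0.332% and 0.0921% of all peaks). Without vehicle replicate 1 no domain was called, without vehicle replicate 2 there was 1, without AA replicate 1 there were 3 and without AA replicate 2 there were 2. All 46 kept their direction in each of these fits, which had to be so, since both AA libraries exceeded both vehicle libraries at each. None of the 46 was called in all 4 of them.

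**Figure D3:**
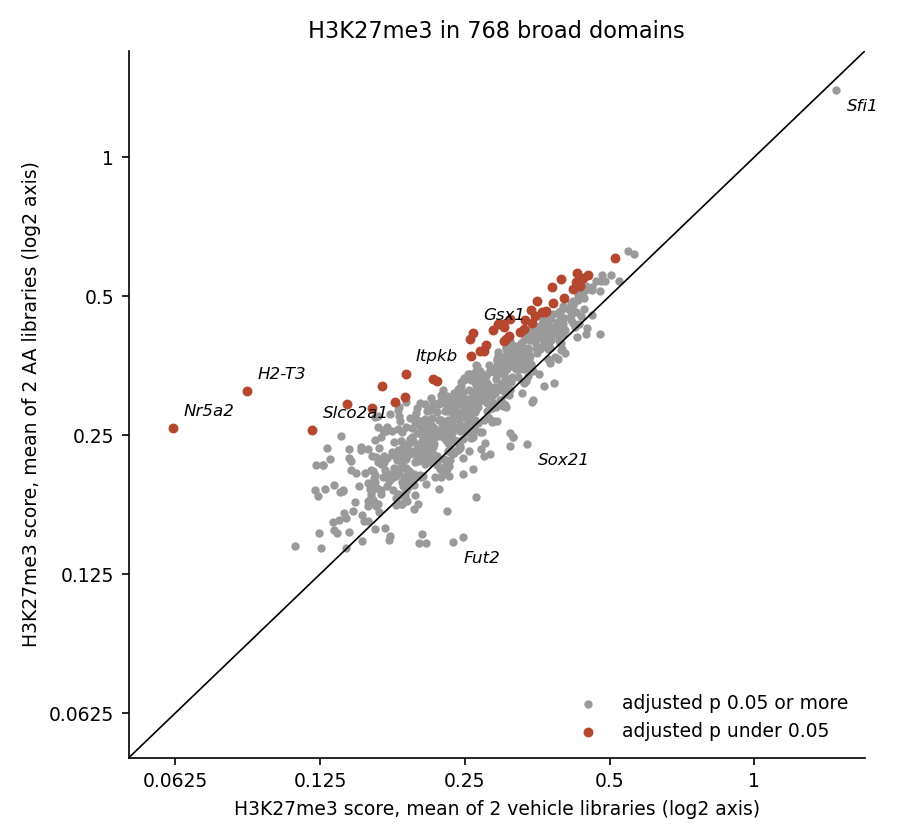
Mean H3K27me3 score of each of 768 domains in the 2 vehicle libraries against that in the 2 AA libraries, both on log2 axes, with the line of equal score. Domains past the test are red and all lie above the line; the chromosome 9 domain at 118 to 128 is off the scale. Nr5a2 and H2-T3 lie far from the others at the left, and Sox21 and Fut2 below the line.

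The largest rise was at Nr5a2, the gene of a nuclear receptor of the crypt epithelium. Its domain (chr1:136944265-136955207, 10943 bp) scored 0.0560 and 0.0678 in vehicle and 0.257 and 0.260 in AA libraries. The change was 1.62 ± 0.37 (SE, limma adjusted p = 0.0143) and 1.51 after centring (limma adjusted p = 0.148). It had the lowest mean of all domains under vehicle, below the median of the narrower peaks, and under AA it stood just below the median domain. Its limma adjusted p ran from 0.192 to 0.591 without 1 library. H2-T3, a gene of a nonclassical MHC class I protein, went from 0.0866 and 0.0894 to 0.317 and 0.305 (chr17:36176675-36187023). Its change of 1.51 ± 0.25 was called before centring (limma adjusted p = 9.8e-05) and after it (1.40, limma adjusted p = 0.0124). Without 1 library its limma adjusted p ran from 0.0321 to 0.421. These were the 2 domains with a vehicle mean under 0.1, where the 10th percentile of domains was 0.169 and 0.164 in the vehicle libraries. Their vehicle scores lay below the median of narrower peaks, and whether they would reach the width limit in the vehicle libraries alone was not tested. The neighbouring domain at Gm8909 (chr17, start 36152323) rose by 0.51 (limma adjusted p = 0.000342).

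Behind these came domains at genes of varied roles. Slco2a1, the gene of a prostaglandin transporter, went from 0.123 and 0.118 to 0.260 and 0.252 (chr9:103064590-103076856, change 0.91 ± 0.23, limma adjusted p = 0.0408). Fam161a, the gene of a ciliary protein, went from 0.135 and 0.149 to 0.261 and 0.322 (0.89 ± 0.19, limma adjusted p = 0.00592). Itpkb, the gene of an inositol trisphosphate kinase, went from 0.201 and 0.176 to 0.337 and 0.342 (chr1:180328419-180339682, 0.75 ± 0.14, limma adjusted p = 0.0007). In each of these both AA libraries lay above both vehicle libraries, as at all 46 domains that rose. The vehicle scores of Slco2a1 and Fam161a lay below the 10th percentile of domains, 0.169 and 0.164 in the vehicle libraries. Whether these domains would reach the width limit in the vehicle libraries alone was not tested. Rap1gap2, the gene of a regulator of the GTPase Rap1, rose by 0.63 (limma adjusted p = 0.0327). A domain with no protein-coding gene on chromosome 13 (chr13:30975481-30994119) rose by 0.81, and a pair of neighbours on chromosome 18 by 0.73 and 0.60. Of the 46 domains that rose, 10 held no protein-coding gene. Their changes ran from 0.23 to 1.62 with a median of 0.43.

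Of the 152 domains with a gene of the 8 families 9 rose (5.92%), as did 27 of the 440 other gene domains (6.14%) and 10 of the 177 without a gene (5.65%). The family lists do not hold every factor: the rising domains of Rax, Hlx and Sim1, which are also transcription factor genes, are counted among the 27. The 9 were at Gsx1, Tbr1, Meis2, Lhx4, Foxf2, Otx1 with Ehbp1, Evx2, Pax3 with Gm2102 and Hoxa3 to Hoxa13. Gsx1, a homeobox gene of the nervous system, had the largest change, from 0.246 and 0.274 to 0.422 and 0.411 (0.62 ± 0.10, limma adjusted p = 3.9e-05). Tbr1, a T-box gene of cortical neurons, went from 0.440 and 0.417 to 0.602 and 0.520 (0.36 ± 0.06, limma adjusted p = 0.000251). Foxf2, a forkhead gene of gut mesenchyme, went from 0.442 and 0.411 to 0.535 and 0.537 (chr13:31605238-31634196, 0.31 ± 0.06, limma adjusted p = 0.0024). The groups did not overlap at these 3, as at all 46 domains that rose, and after centring none passed (limma adjusted p = 0.11, 0.531 and 0.609).

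By family, the median change was 0.15 over the 10 Hox domains (8 above 0), 0.13 over 83 homeobox domains (73 above 0), 0.16 over 11 Pax domains (10 above 0), 0.16 over 10 Sox domains (8 above 0) and 0.20 over 16 Fox domains (15 above 0). All of these were near the 0.18 of all domains, and after centring they ran from 0.02 to 0.09. The HoxC domain changed by 0.18 ± 0.06 (limma adjusted p = 0.199), although its vehicle and AA libraries did not overlap. Identity factors of other gut regions had a median of 0.08 over 13 domains, with none called. Of fibroblast genes, Vim, the gene of the filament protein vimentin, went from 0.211 and 0.227 to 0.295 and 0.359 (0.51 ± 0.13, limma adjusted p = 0.0403), the other called domain of that list being Foxf2. Cbx8, a chromobox subunit of Polycomb repressive complex 1, went from 0.282 and 0.270 to 0.384 and 0.401 (0.46 ± 0.10, limma adjusted p = 0.00541). The Cbx8 domain held 3 H3K27ac peaks, none of which passed.

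No domain fell by limma as scaled by the authors, and the lowest changes, named after their values were seen, are given as values. Gli2, a transcription factor gene of Hedgehog signalling, had 0.261 and 0.235 in vehicle and 0.162 and 0.139 in AA libraries (chr1:118868141-118878810, -0.61 ± 0.20, limma adjusted p = 0.195). Fut2, the gene of a fucosyltransferase of the gut epithelium, had 0.238 and 0.235 against 0.139 and 0.154 (chr7:45657065-45668021, -0.59 ± 0.21, limma adjusted p = 0.282). A second domain next to it, over Rasip1, Mamstr and part of Fut2, had 0.228 and 0.230 against 0.176 and 0.166. Sox21, a Sox gene of foregut and nervous system, had 0.337 and 0.338 against 0.242 and 0.237 (chr14:118222272-118243745, -0.44 ± 0.12, limma adjusted p = 0.0553). Centring on the median left Sox21, Gli2 and Fut2 short of the threshold (limma adjusted p = 0.144, 0.327 and 0.389). After quantile normalization Sox21 passed (-0.65, limma adjusted p = 0.0205), while Gli2 and Fut2 did not (limma adjusted p = 0.154 and 0.243). With the spread modelled on total peak signal, Sox21, Gli2 and Fut2 passed (limma adjusted p = 1.8e-05, 0.000677 and 0.00167). In all 4 domains both AA libraries lay below both vehicle libraries. Tmem200c, Ebf3 and Fgf5 had changes of -0.46, -0.43 and -0.31 and the same order of libraries.

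H3K4me3 in the domains went mostly down under AA. Over the 1446 peaks the median score was 0.173 and 0.180 in vehicle and 0.142 and 0.127 in AA libraries. Median raw coverage of H3K4me3 peaks was lower in the AA libraries, at 1.37 and 1.46 per base, than in the vehicle libraries, at 3.38 and 2.35, and its part in these values was not tested. The median log2 change, here on the log2(score + 0.0253) scale, was -0.36, against -0.19 over the 55488 other autosomal peaks. The change was above 0 in 338 peaks (23.4%), where it was above 0 in 39.4% of all peaks tested. Both AA libraries lay below both vehicle libraries in 582 peaks (40.2%), against 30.5% of all peaks, and above them in 109 (7.54%), against 18.3%. Centring on the median, which adds 0.21 to every change, left a median of -0.15. Within a library, the median log2 score in domains minus that elsewhere was -0.01 in both vehicle libraries, -0.08 in AA replicate 1 and -0.19 in AA replicate 2. This difference of -0.12 had a two-sided exact permutation p of 0.333, the smallest that 6 arrangements allow.

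As scaled by the authors, single H3K4me3 peaks in domains were called slightly less often than peaks at large. By limma 33 of the 1446 peaks passed (2.28%), where 2.92% of all 58548 peaks did. Of these 12 rose (0.83%, against 1.54% of all peaks) and 21 fell (1.45%, against 1.38%). The split depended on the scaling. After centring 41 rose (2.84%, against 9.49% of all peaks) and 14 fell (0.968%, against 0.938%). Together these were 3.80% of the peaks in domains, against 10.4% of all peaks. With the spread modelled on total peak signal 11 rose and 51 fell (1.41% and 2.53% of all peaks), and with centring as well 35 rose and 37 fell (8.95% and 1.6% of all peaks). The calls also depended on which library was left out: fewer peaks in domains were called without 1 vehicle library and more without 1 AA library. These fits leave 1 library in a group, and their counts were not set against those over all peaks. The peak at Sox21 was the only 1 of the 33 that passed in all 4 of these fits.

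**Figure D4:**
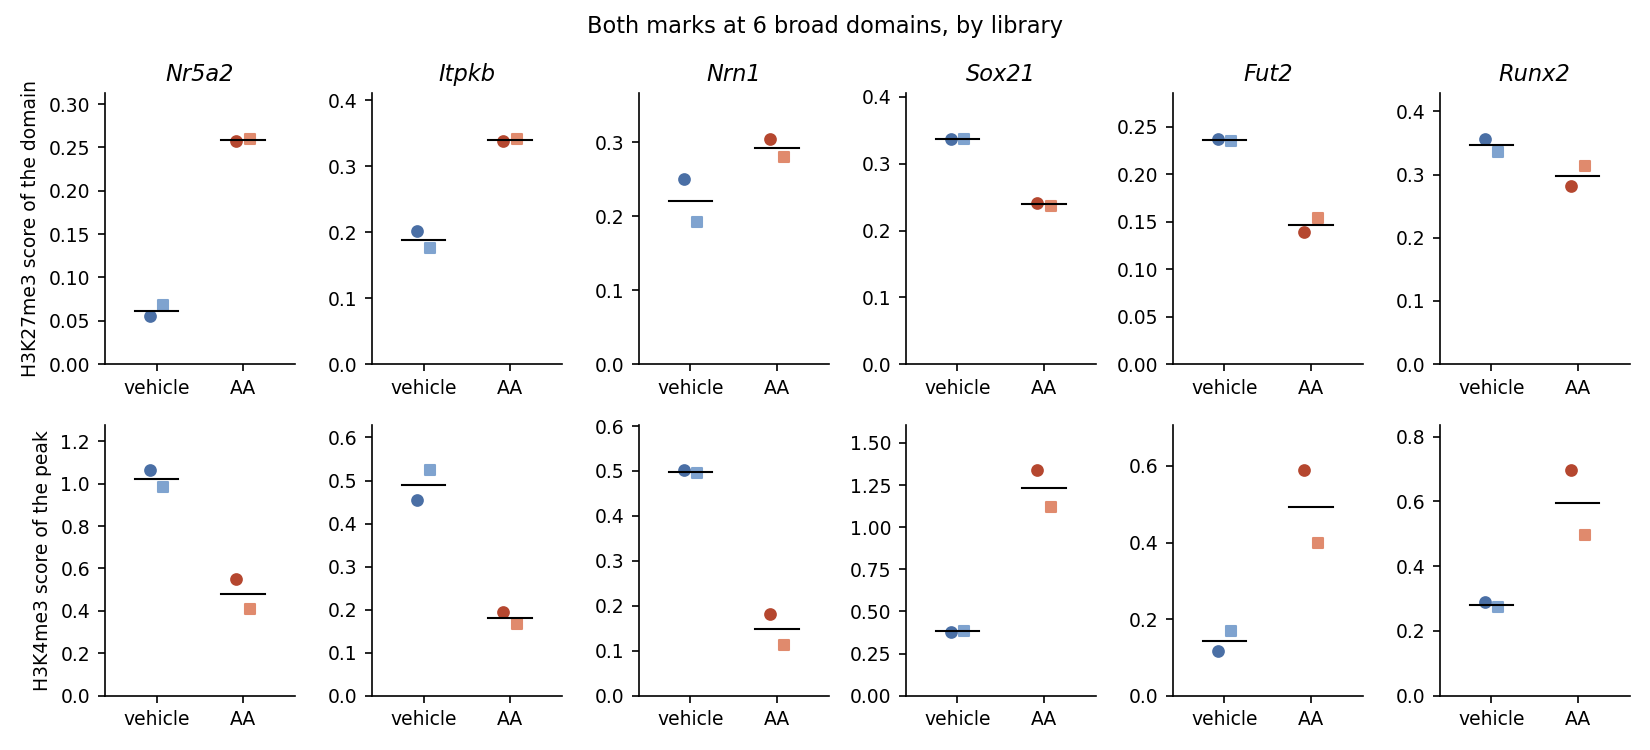
Scores of each library at 6 domains, H3K27me3 of the domain above and H3K4me3 of the called peak in it below, each on its own axis from 0. Circles are replicate 1, squares replicate 2 and lines the mean of 2 libraries; the marks lie in opposite order at all 6 genes because these were picked for it, while at Mecom, for example, both changes were above 0.

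At Sox21 the H3K4me3 peak of 9444 bp (chr14:118229612-118239055) went from 0.381 and 0.382 in vehicle to 1.34 and 1.12 in AA libraries. It rose by 1.62 ± 0.18 (limma adjusted p = 2.1e-15), and by 1.84 after centring. The limma adjusted p was at most 0.000125 without any 1 library. This peak covers the CG-rich start printed above, and H3K27me3 of the domain was lower in both AA libraries, as given. The H3K27ac peak in the domain was at 0.209 and 0.0566 in vehicle and 0.0130 and 0.151 in AA libraries, so its groups overlapped.

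Nr5a2 had the opposite pair of changes. Its H3K4me3 peak (chr1:136945276-136951218) went from 1.06 and 0.982 to 0.548 and 0.407. The change was -1.07 ± 0.18 (limma adjusted p = 2.6e-06), and -0.86 after centring (limma adjusted p = 0.000195). H3K27me3, scored only as a mean over the whole domain around this peak, rose. H3K27ac was not called: 1 peak (chr1:136945350-136950868) had 0.333 and 0.327 in vehicle and 0.337 and 0.256 in AA libraries. That peak changed by -0.13 ± 0.18 (limma adjusted p = 0.859), so H3K27me3 and H3K27ac peaks lay in 1 interval in these cell mixtures. The falling H3K4me3 peak did not reach the printed start of Nr5a2. That start lay under a second H3K4me3 peak (chr1:136952063-136961851) with 0.726 and 0.683 in vehicle and 0.696 and 0.611 in AA libraries, which was not called (-0.11 ± 0.18, limma adjusted p = 0.784).

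Itpkb showed the same order of marks as Nr5a2. Its H3K4me3 peak (chr1:180329588-180333206), which spans the printed start, went from 0.454 and 0.524 to 0.195 and 0.167 (-1.32 ± 0.29, limma adjusted p = 0.00137). At Fut2 the order was that of Sox21: the H3K4me3 peak (chr7:45664579-45667292) went from 0.118 and 0.169 to 0.589 and 0.399, a rise of 1.61 ± 0.31 (limma adjusted p = 9.7e-05). The peaks at Sox21, Nr5a2, Itpkb and Fut2 also passed after centring. Those at Nr5a2, Itpkb and Fut2 passed in 2 of the 4 fits without 1 library, with limma adjusted p up to 0.632, 0.884 and 0.575.

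Across domains the marks did not move in step. Over the 630 domains with an H3K4me3 peak, Spearman's rho between the H3K27me3 change and the H3K4me3 change was 0.02, and over the 137 with an H3K27ac peak it was 0.05; the domains share their libraries, and rho is a description. The 21 called H3K4me3 falls lay in 21 domains, of which 16 had an H3K27me3 change above 0, a smaller share than the 86.0% of all domains. In 3 of the 21, Nr5a2, Itpkb and Hlx, H3K27me3 had risen, as in 5.98% of all domains, and this difference was not tested. The 12 called rises lay in 10 domains, of which 6 had an H3K27me3 change above 0, against 86.0% of all domains. In 4 both AA libraries lay below both vehicle libraries in H3K27me3, against 5.46% of all domains, and 1 of these was the chromosome 9 interval. In 1 of the 10, on chromosome 13, H3K27me3 had risen, as in 5.98% of all domains. These shares were not tested. In the 46 domains that rose, 99 of 119 H3K4me3 peaks were lower in AA by sign, with a median of -0.38, close to the -0.36 of all domains.

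**Figure D5:**
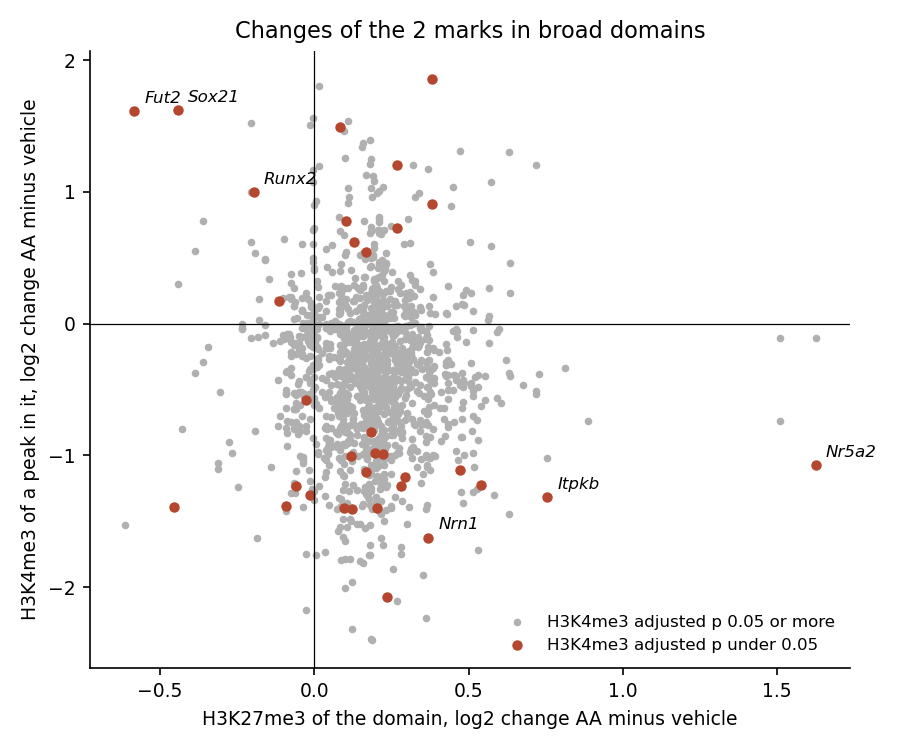
Log2 change of H3K27me3 of a domain against the log2 change of each H3K4me3 peak in it, AA minus vehicle, with called H3K4me3 peaks in red. The cloud is centred right of 0 and below 0, and Sox21 and Fut2 lie at the upper left opposite Nr5a2 and Itpkb at the lower right.

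Further H3K4me3 falls were at genes of several kinds. Nrn1, the gene of the neuronal protein neuritin, went from 0.502 and 0.495 to 0.183 and 0.113 (chr13:36730880-36737361, -1.63 ± 0.31, limma adjusted p = 5.8e-05). The peak at the edge of the Ugt1a cluster, genes of glucuronidating enzymes, went from 2.57 and 2.37 to 1.74 and 1.56 (-0.58 ± 0.10, limma adjusted p = 3.2e-06). The H3K27me3 domain there stayed between 0.249 and 0.267 in all libraries. H3K4me3 peaks covered 99.6% of the bases of that domain and an H3K27ac peak 99.9%. Rnf220, the gene of a ubiquitin ligase, fell by 1.41 on the log2 scale (limma adjusted p = 0.00105). Named after their values were seen, Lgr6, a receptor for R-spondins, fell by 1.22, Lef1, a transcription factor of Wnt signalling, by 0.83, and Ptger2, a receptor for prostaglandin E2, by 1.40 (limma adjusted p = 0.0186, 0.0272 and 0.0391). The Ptger2 peak went from 0.230 and 0.323 to 0.0813 and 0.0947. Falls at Hlx, Prrx1, Zic2 with Zic5, Zic1 with Zic4 and Sox1 involved transcription factor genes. After centring Lef1 and, of the last group, Hlx, Prrx1, Zic1 with Zic4 and Sox1 no longer passed (limma adjusted p from 0.057 to 0.0774).

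The other H3K4me3 rises were fewer. Mecom, a transcription factor gene of blood stem cells, went from 0.667 and 0.672 to 1.18 and 1.16 (chr3:30506146-30511772, 0.78 ± 0.16, limma adjusted p = 0.000253). Runx2, a transcription factor gene of bone, went from 0.290 and 0.272 to 0.696 and 0.495 (1.00 ± 0.25, limma adjusted p = 0.00619). At Nr2f2, the gene of an orphan nuclear receptor, 1 peak rose by 0.54 and a neighbouring one fell by 1.13 on the log2 scale. A pair of domains with no protein-coding gene near 23.3 and 23.4 Mb of chromosome 13 held 4 rising peaks, with changes from 0.73 to 1.86. The chromosome 9 interval with scores above 100 was also called, at 121 and 122 against 135 and 139. Its change was 0.17 (limma adjusted p = 3.5e-09), and 0.38 after centring (limma adjusted p = 4.7e-33). Quantile normalization left a change of -8.9e-16, as for any peak of the same rank in every library, and the interval did not pass. The call thus depended on the scaling.

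No H3K27ac peak in the domains was called between AA and vehicle. Few H3K27ac peaks were called at large, so this does not show that the mark was unchanged. By limma none of the 187 peaks passed, where 0.2% of all 62547 peaks did (0.155% higher and 0.0448% lower), and 13 peaks (6.95%) had an unadjusted p under 0.05, against 7.71% of all peaks. The median score was 0.211 and 0.206 in vehicle and 0.209 and 0.210 in AA libraries. Both AA libraries lay above both vehicle libraries in 42 peaks (22.5%, against 28.5% of all peaks) and below them in 33 (17.6%, against 10.7%). With the spread modelled on total peak signal and centring, 1 peak fell (0.0128% of all peaks). The change was above 0 in 97 peaks (51.9%), against 63.2% of all peaks. The median change was 0.01 on the log2(score + 0.0693) scale, against 0.11 over other autosomal peaks.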

How the data were processed

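The authors deposited 1 table of signal per peak and library for peaks called with SEACR and with MACS2, on mm10 per the submitters' processing notes. Each value is a mean coverage per base times 1 factor per library, inferred from the values, since score times width came out as whole multiples of 1 step; how that factor was set, and whether peaks were called on pooled libraries, is not given in the sources used here. Rows named as control were taken as vehicle. SEACR peaks were used, and MACS2 peaks as an alternative. Log2(score + pseudocount), the pseudocount being the 5th percentile of positive scores of a mark, was compared with limma 3.58.1 (R 4.3.3, trend and robust), AA minus vehicle, with Benjamini-Hochberg adjustment over all SEACR peaks of the mark and a threshold of 0.05. The script was checked on simulated data. Genes, starts and miRNAs came from RefSeq tables of GRCm38.p6, the mm10 assembly, and any shared base counted as overlap. Median raw coverage was 1.13 to 4.41 per base, so single narrow peaks rest on few reads. Domains were named by fixed rules: the 10 widest, highest and most gene-rich, the 10 largest called changes in each direction, the 10 with the smallest adjusted p among those past the threshold in H3K4me3 or H3K27ac, up to 6 per gene list by mean score, and the 3 on either side of the width limit; others were named after their values were seen. Domains and lists were chosen with earlier results of these data known. Alternatives are given in the closing section.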

Additional observations from a re-analysis of the deposited data

How the results depend on the processing

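The count of domains called in H3K27me3, 46, was 24 with the median score as pseudocount, 1 after centring, 2 after quantile normalization, 0 with limma without trend and robust, 23 at a threshold of 0.01, and 0 to 3 without 1 library. Other widths gave 171 (5000 bp or more) and 9 of 160 (20000 bp or more). The share called was 4.88% from 5000 to 10000 bp and 5.6% at 20000 bp or more, against 5.98% of all domains. Of 418 MACS2 peaks in domains, 0 were called, which was not set against the share over all 1828 MACS2 peaks. With the spread modelled on total peak signal, added after seeing the data, 150 were called (143 higher, 7 lower); with centring as well there were 46 (35 higher, 11 lower), 21 of them among the first 46. The median H3K27me3 change of domains, 0.18, was 0.146 with the larger pseudocount, 0.073 after centring, -0.018 after quantile normalization and 0.17 to 0.19 without 1 library. The excess of domains over other peaks, 0.04, became -0.0037 without AA replicate 1, -0.040 against other peaks above the lower quartile, and reached 0.074 without AA replicate 2.

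The 33 H3K4me3 calls in domains became 55 after centring, 55 after quantile normalization, 0 without trend and robust, 12 at 0.01, 99 and 9 at the other widths, 62 and 72 (35 higher, 37 lower) with the spread modelled on total peak signal, the latter also centred, and 1 to 205 without 1 library. Their median change, -0.36, was -0.19 with the larger pseudocount, -0.29 with low scores filtered, -0.15 after centring, -0.13 after quantile normalization and -0.45 to -0.25 without 1 library. H3K27ac calls, 0, were 1 at 5000 bp or more, 1 with total signal and centring, and 0 to 1 without 1 library. The causes were not tested.

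Over all peaks, deviations of same-numbered libraries correlated at 0.00247, -0.00228 and 0.00853 in H3K27me3, H3K4me3 and H3K27ac. Most of these peaks are narrow and rest on few reads. Values near 0 therefore cannot settle whether the replicate numbers paired the libraries. With the replicate block, 53 domains (52 higher, 1 lower), 35 H3K4me3 peaks and 0 H3K27ac peaks were called, and all 46 domains and 33 peaks called without it were among them. Depth limits narrow peaks most; with 2 libraries a group, an exact test over libraries cannot go below 0.333.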
